A study of Homo sapiens with 6 samples.

Results

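The fibroblast growth factor (FGF) receptors and ligands were examined in 2 isogenic sublines of T47Dco, a human luminal breast cancer cell line. The 10 genes were the receptors FGFR1, FGFR2, FGFR3, FGFR4 and FGFRL1, the FGF carrier FGFBP1, and the ligands FGF1, FGF2, FGF7 and FGF10. They were taken by name from the gene column of the arrays, with every probe of each gene, which gave 19 of 34127 probes and 10 of 25940 gene names. All 10 names matched current RefSeq symbols.

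pLUM (pure luminal) cells were grown with 1 nM estradiol (E) for 72 h before harvest, whereas pLB (pure luminobasal) cells were under E withdrawal (EWD). Both lines came from T47Dco xenografts in ovariectomized NSG mice, pLUM from a tumor given E and pLB from a tumor given E and progesterone. Each was purified by repeated sorting, pLUM as CLD3+ CD49f- and pLB as CLD3- CD49f+, and each is a single line, so that line, tumor of origin and E cannot be told apart on these arrays. RNA from 3 sorts of each line was hybridized to single-dye Agilent arrays, and the p-values therefore measure the spread between sorts of a line. Cells were stained for CK5 before RNA extraction, and whether CK5+ or CK5- cells were hybridized is not given in the labels. In RNA from many cells, fewer cells that express a transcript and less transcript per cell cannot be told apart.

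FGF receptors are membrane tyrosine kinases that bind FGFs together with heparan sulfate. Binding pairs the receptors, and docking proteins such as FRS2 then pass the signal to the RAS-MAPK cascade. That cascade turns on its own inhibitors, among them the Sprouty proteins and the phosphatase DUSP6. Alternative splicing gives FGFR1, FGFR2 and FGFR3 an epithelial and a mesenchymal ligand-binding form. In breast, FGF7 and FGF10 come mainly from stroma and act on the epithelial form of FGFR2, and amplified or overexpressed FGFR1 and FGFR4 are well known in luminal breast cancer.

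Each array probe is a 60-base DNA strand that reads 1 stretch of a transcript, and the sequences of 3 probes are shown because they lie in protein-coding sequence and carry contrasting outcomes. The FGFR4 probe, at chr5:176523121-176523180 on the plus strand of hg19, and 1 FGFR2 probe, at chr10:123243217-123243276 on the minus strand, lie in the kinase-coding part of their genes. The FGF10 probe, on the minus strand of chromosome 5, has its ends at 44305261 and 44310554 of hg19, a span longer than the probe, which therefore bridges a splice junction. Capitals mark the codons of the Asp-Phe-Gly motif at the start of the kinase activation loop, bases 4 to 12 of the FGFR4 probe.
FGFR4: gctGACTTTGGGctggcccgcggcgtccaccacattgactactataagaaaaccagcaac
FGFR2: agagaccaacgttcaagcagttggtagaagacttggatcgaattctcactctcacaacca
FGF10: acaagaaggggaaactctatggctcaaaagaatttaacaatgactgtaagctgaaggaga
Probes of different genes among the 10 shared no run longer than 10 bases in any of 159 pairs. The FGF2 probes overlapped by 46 bases and count as 1 measurement of the transcript.

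Values are log2 signals relative to the 75th percentile of the array, so that 0 is the level of that percentile and each unit is a doubling. Testing required that the scanner software call a probe well above background on 3 arrays or more, which 23103 probes met. It was called higher or lower in pLB if the lines differed at least 2-fold with an adjusted p under 0.05 in limma (Benjamini-Hochberg, over all tested probes). Well above background began at a log2 signal between -5.71 and -4.75, depending on the array. Of the 19 probes, 13 were tested and 10 were well above background on all 6 arrays. FGFBP1, FGFR2 and FGFR3 were called higher in pLB, FGFR4 and FGFRL1 were called lower, FGFR1, FGF1 and FGF7 were not called, and FGF2 and FGF10 could not be tested. With each gene read by its brightest tested probe, 3 of 8 genes were thus called higher, against 22.7% of the 17668 gene names tested, and 2 of 8 were called lower, against 23.0%. Among the 13 tested probes, 6 were called higher, against 21.9% of all probes, and 3 were called lower, against 23.7%. With so many transcripts differing between the lines, 5 of 8 genes called is near the 45.8% called in either direction among all genes. The 3 pLUM and 3 pLB signals did not overlap for 10 of the 13 probes, against 68.1% of all probes.

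**Figure D1:**
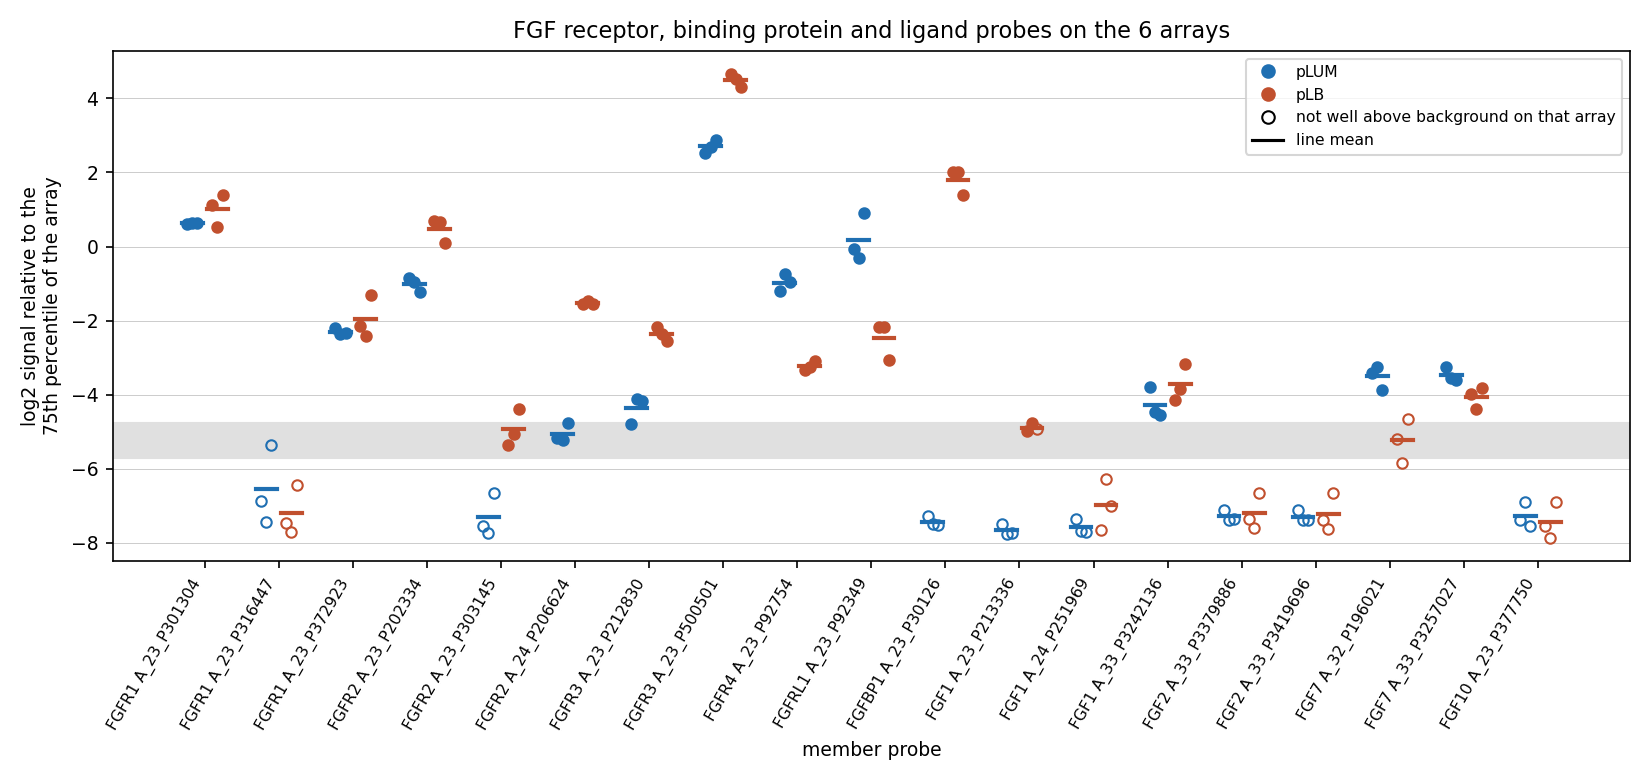
Signals of the 19 probes on each array, as log2 relative to the 75th percentile of the array. Each point is 1 array (pLUM blue, pLB red), open where the probe was not well above background, with a bar at the line mean; the grey band, from -5.71 to -4.75, spans the lowest signals well above background on the 6 arrays. FGFBP1 lies near -7.4 on the pLUM arrays and between 1.40 and 2.02 on the pLB arrays, whereas both FGF2 probes lie below the band on all 6 arrays.

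FGFBP1 differed most among the 10 genes. It encodes a secreted protein that releases FGFs from heparan sulfate in the extracellular matrix and carries them to their receptors. Its probe, at chr4:15937332-15937391 on the minus strand of hg19, gave -7.28, -7.49 and -7.52 on pLUM replicates 1 to 3, none of them well above background. On pLB replicates 1 to 3 it gave 2.00, 2.02 and 1.40. All 3 pLB sorts were thus far above all 3 pLUM sorts, and the transcript passed from background to a level above the 75th percentile. Because pLUM was at background, the difference is a lower bound. FGFBP1 was at least 146-fold higher in pLB (adjusted p = 3.3e-07, limma), where the bound sets the pLB mean against the lowest signal well above background on each pLUM array. With normexp background correction the fitted log2 difference fell from 9.24 to 4.49 and was still called. This correction adds an offset of 50 to every signal, where the 75th percentiles of the arrays were 449 to 869. The offset weighs most on dim signals and compresses their differences.

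The promoter of FGFBP1 is shown as that of the gene with the widest difference, from the RefSeq table for GRCh38.p14. These are the 250 bases before the transcript start, chr4:15938741-15938990 on the minus strand.
FGFBP1 promoter: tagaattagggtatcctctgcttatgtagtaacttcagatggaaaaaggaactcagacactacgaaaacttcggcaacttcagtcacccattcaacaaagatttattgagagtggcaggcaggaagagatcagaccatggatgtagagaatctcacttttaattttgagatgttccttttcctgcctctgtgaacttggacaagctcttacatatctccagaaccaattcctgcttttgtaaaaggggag
Promoters were searched on both strands, from 250 bases before to 50 after the start, for TGANTCA (AP-1) and GGGCGG (GC box), and 9 of the 10 genes had a promoter in the table. The window of FGFBP1 held neither. The AP-1 letters stood in 1 of the 17, a promoter of FGF1, or 5.88%, against 7.71% of all 35116 promoters. The GC box stood in 8 of the 17 promoters of these genes, or 47.1%, near the 45% of all promoters. A match to these letters describes the sequence and is not a measured site.

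FGFR2, the receptor for FGF7 and FGF10 in its epithelial form, was higher in pLB on all 3 of its probes. The brightest gave -0.85, -0.96 and -1.24 in pLUM and 0.70, 0.67 and 0.09 in pLB. The lines did not overlap, and the fitted difference was 2.83-fold (log2 1.50, SE 0.22, adjusted p = 0.00087, limma). The kinase probe shown above gave -5.18, -5.23 and -4.75 in pLUM, near the limit of detection. In pLB it gave -1.54, -1.46 and -1.55, with an SD of 0.05 between sorts. This is 11.6-fold (log2 3.53, SE 0.18, adjusted p = 5.7e-06, limma), and the 95% interval of its log2 difference, 3.10 to 3.97, lay above that of the brightest probe, 0.97 to 2.03. As fitted, the kinase probe and the brightest probe agreed in direction and disagreed in size. With normexp background correction their log2 differences were 1.33 and 1.27, close to each other, and both were still called. The remaining FGFR2 probe, for transcript ENST00000359354, was at background on all pLUM arrays and gave -5.36, -5.05 and -4.39 in pLB, at least 1.36-fold higher. That bound is under 2-fold, and with dim signals set to the detection limit or with normexp background correction the probe was no longer called (log2 0.44 and -0.19). No probe separates the epithelial from the mesenchymal form in the files' annotation, so the form of FGFR2 was not measured.

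FGFR3, a receptor of the same family, was higher in pLB on both probes. At chr4:1810363-1810422 on the plus strand of hg19 the signals were 2.52, 2.70 and 2.88 in pLUM and 4.66, 4.51 and 4.31 in pLB. All 6 signals exceeded the 75th percentile of their array, and the pLB sorts were 3.46-fold higher (log2 1.79, SE 0.18, adjusted p = 0.00012, limma). The probe at chr4:1809054-1809113 was dimmer, with -4.78, -4.13 and -4.16 in pLUM and -2.18, -2.36 and -2.56 in pLB. Its difference was 3.96-fold (log2 1.99, SE 0.23, adjusted p = 0.00024, limma), of the same size as the brighter probe within its SE. Normexp background correction moved the dimmer probe to a log2 difference of 0.52, which was not called, and left the brighter probe called.

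FGFR4 went the other way. This receptor binds FGF19 together with the coreceptor beta-Klotho, and also FGF1. Its kinase probe gave -1.20, -0.75 and -0.96 in pLUM and -3.33, -3.24 and -3.08 in pLB. Every pLB sort was below every pLUM sort, and FGFR4 was 4.74-fold lower in pLB (log2 -2.25, SE 0.18, adjusted p = 4.3e-05, limma).

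FGFRL1, which binds FGFs but has no kinase domain, was also lower in pLB. The probe, at chr4:1019939-1019998 on the plus strand of hg19, gave -0.06, -0.32 and 0.90 in pLUM and -2.16, -2.18 and -3.07 in pLB. The SD between sorts was 0.64 in pLUM and 0.52 in pLB, and the lines did not overlap. The difference was 6.24-fold (log2 -2.64, SE 0.38, adjusted p = 0.00075, limma).

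FGFR1, the receptor whose gene is often amplified in luminal tumors, was not called on either tested probe. The brighter gave 0.60, 0.64 and 0.65 in pLUM and 1.12, 0.54 and 1.39 in pLB. pLB replicate 2 fell below all pLUM arrays and the other pLB arrays above them, so the lines overlapped. The log2 difference was 0.39 (SE 0.24, adjusted p = 0.19, limma), with a 95% interval from -0.17 to 0.94 that leaves room for a rise of under 2-fold. Without pLB replicate 2 it was 0.63 (adjusted p = 0.039), still under 2-fold. The dimmer probe gave -2.20, -2.37 and -2.33 in pLUM and -2.13, -2.41 and -1.32 in pLB (log2 difference 0.35, SE 0.29, adjusted p = 0.32, limma). The third, for transcript ENST00000496296, was at background on every array.

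**Figure D2:**
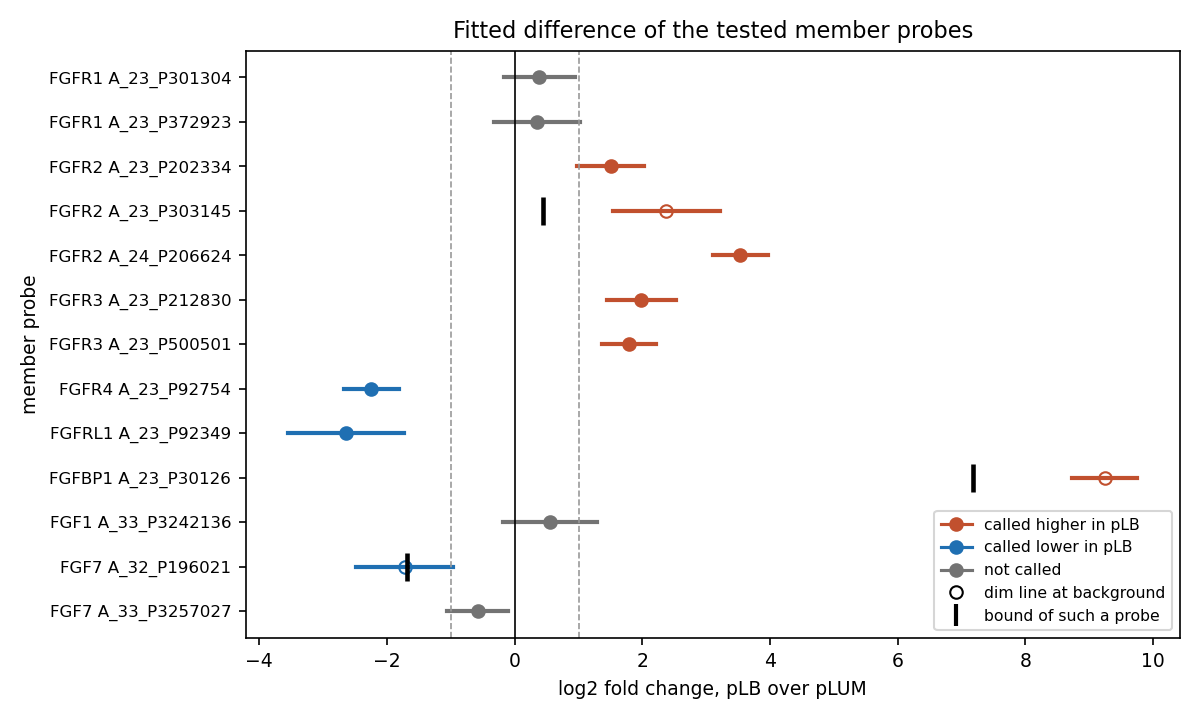
Fitted log2 fold change of the 13 tested probes, pLB over pLUM, with 95% intervals from limma. Points are filled where both lines were measured and open where the dimmer line was at background on all 3 arrays, in which case the black tick gives the bound; dashed lines mark 2-fold. FGFR2 and FGFR3 lie to the right and FGFR4 and FGFRL1 to the left, with FGFR1 between the dashed lines or across 1 of them.

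Among the 4 ligands, FGF7 was the only one well above background in pLUM and dimmer in pLB. FGF7, also known as keratinocyte growth factor, signals from stroma to epithelium. The probe at chr15:49778552-49778611 gave -3.41, -3.24 and -3.87 in pLUM and -5.20, -5.83 and -4.65 in pLB, where no array was well above background. It was at least 3.21-fold lower in pLB (adjusted p = 0.0028, limma). The probe at chr15:49776810-49776869, well above background on all arrays, gave -3.26, -3.56 and -3.61 in pLUM and -3.99, -4.37 and -3.82 in pLB. This second difference was 1.50-fold (log2 -0.58, SE 0.21, adjusted p = 0.041, limma), under the 2-fold threshold, and it represents the gene because it is the brighter of the pair. RefSeq names 8 FGF7 pseudogenes, and binding of their transcripts to these probes was not tested. With normexp background correction the first probe was no longer called (log2 -0.88, adjusted p = 0.056).

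FGF1, which binds all the signaling receptors, had 3 probes with different results. The probe for the non-coding transcript NR_026696 gave -3.80, -4.47 and -4.54 in pLUM and -4.14, -3.84 and -3.17 in pLB. The lines overlapped and the log2 difference was 0.55 (SE 0.31, 95% interval -0.18 to 1.29, adjusted p = 0.16, limma). The probe for the coding transcript at chr5:141974812-141974871 was at background in pLUM, at -7.48, -7.75 and -7.73. It gave -4.98, -4.75 and -4.93 in pLB, well above background on replicates 1 and 2 only. With 2 such arrays it was not tested, and its bound was a rise of at least 1.41-fold in pLB. Without the filter on dim probes it was called higher in pLB (log2 2.77, SE 0.19, adjusted p = 5.1e-05, limma), a fitted value that rests on pLUM signals at background. The other coding probe was at background on all 6 arrays.

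FGF2 and FGF10 were at background throughout. FGF2, or basic FGF, gave -7.10 to -7.38 in pLUM and -6.65 to -7.60 in pLB on 1 probe, and its overlapping probe gave nearly the same. FGF10 gave -7.37, -6.90 and -7.54 in pLUM and -7.55, -7.87 and -6.89 in pLB. These signals show no difference that the arrays could measure, and a transcript below the detection limit is not shown to be absent.

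The rest of the pathway was read from 6 lists of 85 genes, of which 66 were tested. In all, 34 were called higher and 10 lower in pLB, or 51.5% and 15.2% of those tested, against 22.7% and 23.0% of all genes. The median log2 difference was 1.07 against 0.04 over all genes tested. Of the 34, KAL1 (ANOS1), FLRT2, HS3ST1, HS6ST2, SPRY4, SPRED1, SPRED2, ETV4 and ETV5 were read by probes that met the filter through pLB alone. Their fitted differences rest on pLUM signals at background. Of the 10, FGF12 and FRS3 met the filter through pLUM alone. With normexp background correction, 15 of the 34 lost their call and 19 were called higher. Over all 23103 tested probes, the same correction cut those called higher from 5054 to 3004. The lists differed widely from one another.

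Of 18 other FGF ligands, 5 were tested. FGF11, an intracellular family member, was called higher in pLB, at -4.33, -4.31 and -4.45 in pLUM and -2.43, -3.15 and -2.52 in pLB (log2 1.66, SE 0.22, adjusted p = 0.00052, limma). FGF3, a secreted ligand, was called lower, at -1.93, -2.37 and -1.97 in pLUM and -4.80, -4.69 and -3.35 in pLB (log2 -2.19, SE 0.39, adjusted p = 0.0021, limma). FGF12, which acts inside the cell like FGF11, was well above background in pLUM only and was at least 2.26-fold lower (adjusted p = 3.6e-05, limma). With normexp background correction FGF11 was not called (log2 0.36). FGF5 and FGF9 varied between sorts and were not called. The log2 difference of FGF9 was 0.43 as fitted and 3.37 with slide as a block, which compares pLB replicate 1 with the pLUM arrays. FGF19, the main ligand of FGFR4, was well above background on at most 1 array of a line and was not tested.

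Of 11 coreceptors and binding proteins, 7 were tested, 4 were called higher and 1 lower, against 22.7% and 23.0% of all genes. N-cadherin (CDH2), an adhesion protein that also associates with FGFR1, gave -5.72, -5.38 and -5.92 in pLUM and 1.74, 1.50 and 1.40 in pLB. Its log2 difference was 7.22 (SE 0.20, adjusted p = 5.2e-07, limma), with 1 pLUM array well above background. FLRT3, a membrane protein that binds FGF receptors, rose by a log2 difference of 4.35 (SE 0.23, adjusted p = 6.2e-06), from -2.22, -2.47 and -2.67 in pLUM to 2.23, 1.93 and 1.53 in pLB. FLRT2 and KAL1, now named ANOS1, were at background in pLUM and at least 3.72-fold and 4.99-fold higher. Neither was called with normexp background correction, at log2 differences of 0.28 and 0.54. FGFBP3, a relative of FGFBP1, was lower in pLB, with -1.91, -1.62 and -1.53 in pLUM and -3.35, -3.12 and -3.33 in pLB (log2 -1.58, SE 0.18, adjusted p = 0.00021, limma). FGFBP1 and FGFBP3 therefore differed in opposite directions. Alpha-Klotho (KL) and beta-Klotho (KLB), the coreceptors for the endocrine FGFs, were at background on all 6 arrays.

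Heparan sulfate proteoglycans and the enzymes that build and trim their chains formed the list with most members measured. Of 20 tested genes, 14 were called higher in pLB, against 22.7% of all genes, and 6 were not called. The median log2 difference was 1.80. With normexp background correction 10 were called higher. HS3ST1 and HS6ST2 met the filter through pLB alone. GPC3, counted as not called by its brightest probe, had 1 of 2 probes called higher. SULF2, an extracellular enzyme that removes 6-O sulfates from heparan sulfate, was -2.76, -2.74 and -3.00 in pLUM and 5.63, 5.30 and 5.53 in pLB. It was well above background on all 6 arrays, and its log2 difference of 8.32 (SE 0.17, adjusted p = 2.5e-07, limma) was the widest in the list. SULF1, which has the same activity, rose by a log2 difference of 4.99 (SE 0.19, adjusted p = 1.6e-06). HS3ST1, a 3-O-sulfotransferase, was at background in pLUM and -0.85, -1.06 and -0.90 in pLB, at least 21.7-fold higher (adjusted p = 5.4e-07, limma). The core protein syndecan-1 (SDC1) went from -0.57, -0.44 and -0.15 in pLUM to 6.02, 5.62 and 5.26 in pLB, a log2 difference of 6.02 (SE 0.24, adjusted p = 1.7e-06, limma). Perlecan (HSPG2), glypican-4 (GPC4) and the chain polymerase EXT1 rose by log2 differences of 3.79, 4.10 and 3.31. The N-sulfation enzymes were not called, NDST1 at a log2 difference of 0.08 (SE 0.20) and NDST2 at -0.60 (SE 0.26). SDC1, HSPG2, GPC4 and EXT1 were named after their values were seen, for being among the larger differences, and the NDST genes for contrast.

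**Figure D3:**
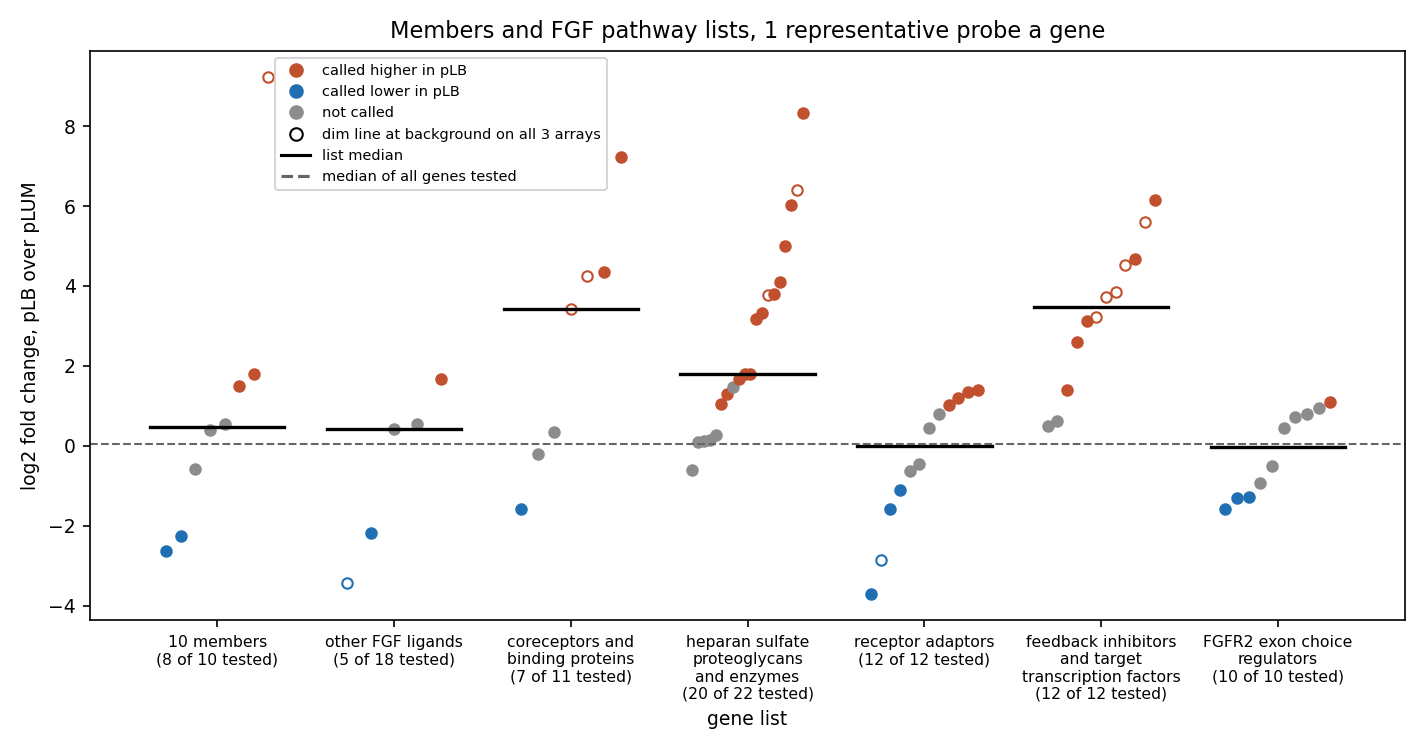
Log2 fold change, pLB over pLUM, of each tested gene by its brightest tested probe, for the 10 genes and the 6 pathway lists. Points are red where called higher, blue where called lower and grey where not called, and open where the dimmer line was at background on all 3 arrays; black bars are list medians, and the dashed line, at 0.04, is the median of all 17668 gene names tested. The heparan sulfate and feedback lists lie mostly above the dashed line, with medians of 1.80 and 3.47, whereas the adaptor list is split.

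Receptor adaptors moved in both directions. Of 12, 4 were called higher and 4 lower, against 22.7% and 23.0% of all genes, with a median log2 difference of 0.00. With normexp background correction 2 were called higher and 3 lower. FRS2, the main docking protein of FGF receptors, gave 2.60, 2.34 and 2.10 in pLUM and -1.27, -1.53 and -1.31 in pLB. It fell by 3.72 on the log2 scale (SE 0.19, adjusted p = 5.1e-06, limma). FRS3, its relative, was well above background in pLUM only and at least 2.45-fold lower in pLB (adjusted p = 0.00033, limma). SHC1 and PTPN11, which serve many receptor tyrosine kinases, rose by log2 differences of 1.38 (SE 0.17) and 1.36 (SE 0.17), with adjusted p of 0.00034 and 0.00037.

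Most feedback inhibitors and target transcription factors of FGF signaling were called higher in pLB. Of 12 tested genes, 10 were called higher, against 22.7% of all genes, and SPRY3 and SPRED3 were not called. The median log2 difference was 3.47. Of the 10, SPRY4, SPRED1, SPRED2, ETV4 and ETV5 were read by probes at background on all pLUM arrays, which met the filter through pLB alone. Another tested SPRY4 probe was well above background on all 3 pLUM arrays and was not called. With these 5 genes set at their bounds the median was 2.69, and with normexp background correction it was 0.57 and 5 of the 12 were called. DUSP6, the phosphatase that inactivates ERK, gave -2.42, -2.79 and -3.34 in pLUM and 3.19, 3.24 and 3.47 in pLB. Its log2 difference was 6.15 (SE 0.26, adjusted p = 2.1e-06, limma), and no pLB sort came near a pLUM sort. ETV5, an ETS transcription factor induced by FGF signaling, was at background in pLUM and -1.74, -1.75 and -2.15 in pLB, at least 11.3-fold higher (adjusted p = 1.2e-06, limma). SPRY1, SPRY2, SPRY4, SPRED1, SPRED2, IL17RD, ETV1 and ETV4 were the other 8 called. ETV1 changed sign with normexp background correction (log2 1.39 as fitted and -0.16 with it, not called). These genes respond to RAS-MAPK signaling from many receptors, and FGF signaling itself was not measured.

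Of 10 regulators of the FGFR2 exon choice, 1 was called higher and 3 lower in pLB, near the 45.8% called in either direction among all genes. Without pLB replicate 3 the counts were 3 and 3, with slide as a block they were 3 and 4, and with normexp background correction 3 were called lower and RBFOX2 was not called. ESRP1 and ESRP2 are epithelial splicing factors that favor the epithelial exon. ESRP1 gave 1.24, 1.11 and 0.73 in pLUM and 1.23, 1.51 and 1.66 in pLB, which overlapped (log2 difference 0.44, SE 0.21, adjusted p = 0.099, limma). ESRP2 gave 4.81, 4.74 and 4.75 in pLUM and 3.12, 3.11 and 3.36 in pLB, lower by 2.97-fold (log2 -1.57, SE 0.16, adjusted p = 0.00012, limma). Both remained well above background on every array of both lines. RBFOX2 rose by a log2 difference of 1.09 (SE 0.16, adjusted p = 0.00084), and TIA1, called lower on both probes, fell by 1.32 on the log2 scale (SE 0.25, adjusted p = 0.003). TIAL1, counted as not called by its brightest probe, had 1 of 2 probes called lower.

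In pLB, 8 of 8 basal markers were called higher and 8 of 9 luminal markers lower, against 22.7% and 23.0% of all genes. KRT5, KRT14, TP63 and SNAI2 were at background on all pLUM arrays and met the filter through pLB alone. KRT8, counted as lower by its brightest probe, had 2 of 3 probes called lower and 1 called higher. These counts are no independent check of the labels. CLDN3 and ITGA6 (CD49f) encode the proteins used to sort the lines, KRT5 encodes CK5, and most of the others were already reported for these lines. Since FGF7 and FGF10 are stromal ligands, markers of other cells were read on the same arrays. Of 10 fibroblast markers, COL1A1 was well above background in both lines, COL1A2 and THY1 in pLB only, and COL3A1, DCN, LUM, PDGFRA, PDGFRB, POSTN and FAP on no array. COL1A2 and THY1 were called higher in pLB, by at least 11.5-fold and 22.9-fold (adjusted p = 9.3e-07 and 3.8e-06, limma). Both were still called with normexp background correction (log2 1.33 and 1.90), and COL1A1 was not called. The summed fibroblast level, in units of the 75th percentile, was 0.796 to 0.988 in pLUM and 1.28 to 1.82 in pLB. Of 5 endothelial markers, CDH5 was well above background on all 6 arrays and was not called (log2 0.51, adjusted p = 0.26, limma). VWF was well above background in pLB only and was called higher (at least 1.80-fold, adjusted p = 0.0088, limma), and PECAM1, KDR and TEK were so on no array. The list summed to 0.0778 to 0.114 in pLUM and 0.0987 to 0.215 in pLB. Among the 4 leukocyte markers on the array, CD68 was called higher in pLB (log2 1.52, SE 0.19, adjusted p = 0.00039, limma), CD14 was not called, and CD3E was not tested. Of 2 tested PTPRC probes, 1 was called lower (log2 -1.20, SE 0.25, adjusted p = 0.0045, limma) and the brighter was not called. The list summed to 0.196 to 0.321 in pLUM and 0.257 to 0.384 in pLB. VWF and CD68 were not called with normexp background correction (log2 -0.25 and 0.09). The part of these fibroblast, endothelial and leukocyte markers in the FGF results was not tested.

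The 3 pLUM arrays and pLB replicate 1 shared a slide, and pLB replicates 2 and 3 were on another. With slide as a block, which compares pLB replicate 1 with the 3 pLUM arrays, the log2 difference was 9.44 for FGFBP1 and 1.71 for the brightest FGFR2 probe. It was 1.96 for the brighter FGFR3 probe, -2.36 for FGFR4 and -2.34 for FGFRL1. The counts of probes called were 6 and 3, as without the block. With 3 arrays a line, the smallest two-sided p of an exact permutation test is 0.1, so single values rest on the limma fit across all probes, and the number of arrays limits the precision.

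**Figure D4:**
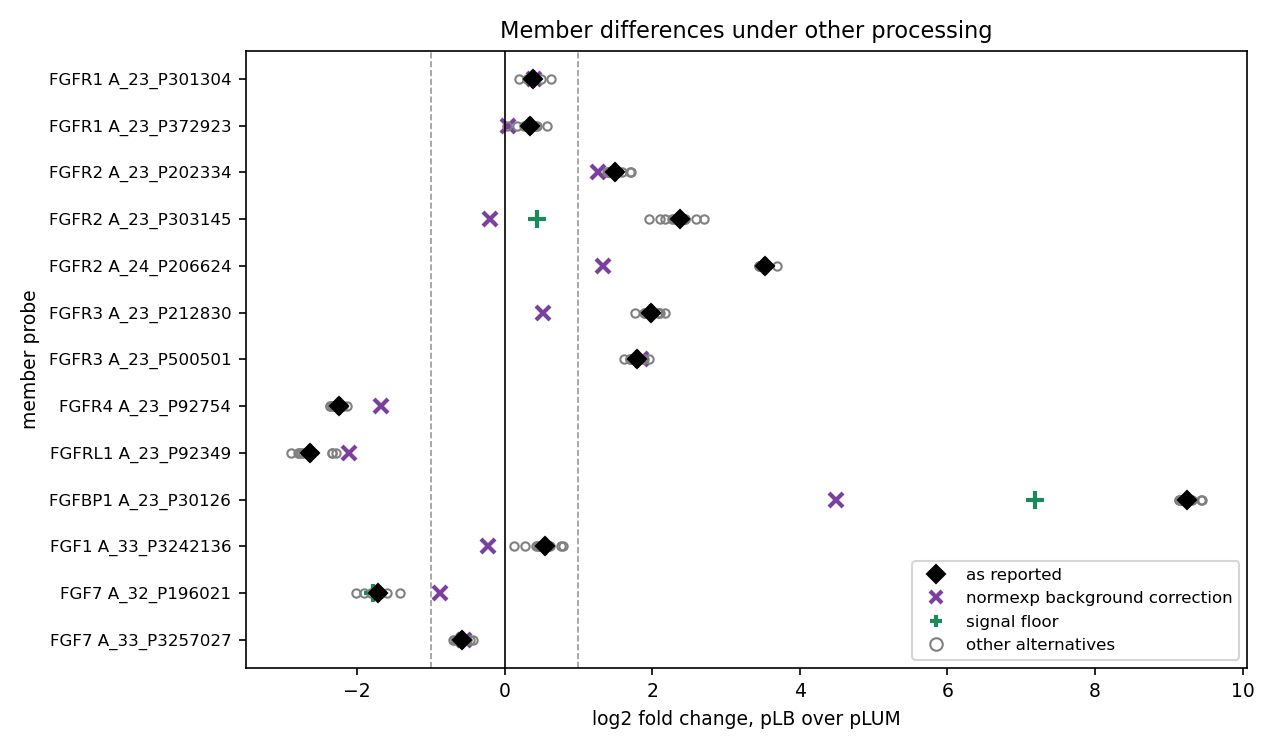
Log2 fold change, pLB over pLUM, of each tested probe as reported (black diamonds) and under the alternatives, with normexp background correction (crosses) and the signal floor (plus signs) drawn apart; dashed lines mark 2-fold. The crosses of the dim FGFR2, FGFR3 and FGF7 probes lie inside the dashed lines, at -0.19, 0.52 and -0.88, whereas those of FGFR4, at -1.67, and FGFRL1, at -2.11, lie outside.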

How the data were processed

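RNA of pLB (n = 3) and pLUM (n = 3) sorts was compared on 6 arrays. For each spot the authors deposited a background-corrected intensity from Agilent Feature Extraction 10.10.1.1, not scaled between arrays, and the gene names and hg19 positions used are those of the files. Partek is named in the submitters' processing notes, without a version. Each intensity was divided by the 75th percentile of its array and put on the log2 scale. Control spots were dropped, as were 296 to 387 spots an array with an outlier flag, and the mean over a probe's spots was taken. Between 21280 and 22772 probes an array were well above background, and no gene spot was saturated. The test was limma 3.58.1 (lmFit and eBayes, R 4.3.3). A gene was read by its tested probe with the highest mean over the arrays. Where no array of a line was well above background, the fold is a bound, in which each dim signal counts as no less than its array's lowest signal well above background. On simulated data for pLB against pLUM with 200 of 23103 probes changed, 190 were recovered with 16 false calls.

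The 10 genes and all lists were chosen with earlier results of these data known. Named genes are the 10 genes, of each pathway list the 2 called genes with the largest fitted rise and the 2 with the largest fall, and KL, KLB, ESRP1 and ESRP2; others are said to be chosen later or are named for counts, related genes or markers. Replicate numbers were not used as pairs. The alternatives were other background corrections, scalings, filters, thresholds and tests, blocks for slide and replicate number, the mean of a gene's probes, and leaving out each array in turn. Exon and UTR annotation of hg19 and a protein table were not used here.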

Additional observations from a re-analysis of the deposited data

How the results depend on the processing

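The numbers of the 10 genes and 19 probes called in each direction stayed within 1.5 times of the reported counts under every alternative that was run. Of the pathway list genes, 34 were called higher as reported, 19 with normexp background correction and 20 when a probe had to be well above background on every array, a filter that leaves out genes at background in pLUM. With the methods' t-test at the same fold the counts of FGF probes were 6 higher and 3 lower, both at unadjusted p and after Benjamini-Hochberg adjustment, and 32 and 31 pathway list genes were higher. Leaving out each array in turn gave 31 to 37 pathway list genes higher, 9 to 10 lower, and 6 FGF probes higher and 3 lower each time. Normexp background correction moved the median of all tested probes to -0.26 on the log2 scale, from -0.01. Among all tested probes it cut those called higher from 5054 to 3004 and those called lower from 5476 to 4033. With it, 15 of the 34 pathway list genes called higher and 1 of the 10 called lower lost their call, and of 66 tested, 6 changed sign, of which 1, ETV1 (log2 -0.16), had been called. Among the probes of the 10 genes, 2 changed sign, FGFR2 for ENST00000359354 (log2 -0.19, adjusted p = 0.72) and FGF1 for NR_026696 (log2 -0.23, adjusted p = 0.63), and 1 probe each of FGFR3 (0.52) and FGF7 (-0.88) was no longer called, nor were RBFOX2 (0.89) and FGF11 (0.36). How much of these changes came from the offset, which compresses differences of dim signals, was not tested. Without the filter on dim probes 7 FGF probes were called higher, the seventh for FGF1. The signal floor, which sets dim signals to the detection limit, moved the same FGFR2 probe to 0.44, and without a fold threshold the brighter FGF7 probe was called (-0.58, adjusted p = 0.041). Residuals of same-numbered sorts correlated at -0.27, -0.10 and -0.22, so the numbers were not taken as pairs, and with a replicate block 6 probes of the 10 genes were called higher and 3 lower, as without it. Low signal over background limits FGF1, FGF2, FGF10, the FGFR2 probe for ENST00000359354, the dimmer FGFR3 probe and the FGF7 probe at background in pLB. It also limits the size of the FGFBP1 and FGFR2 kinase probe differences, with pLUM at or near background.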
